A study of Mus musculus with 12 samples.

Results

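The nitric oxide and cGMP signaling core described here is a set of 10 genes out of the 55414 genes in a table of lung RNA levels. The genes were selected on earlier results of the same lungs, including their difference between genotypes and their correlation across lungs, and were found in the table by gene name. For that reason their genotype differences and correlations are given as descriptions without a test. Of the 10 genes, 9 passed a filter on low values (at least 1 TPM in at least 6 of 12 lungs, where TPM is a gene's share of all transcripts, scaled to its length) and Gucy1a2 did not.

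Whole lungs of 12 mice were sequenced on day 4 after 50 µg of lipopolysaccharide (LPS), the endotoxin of Gram-negative bacteria, which is widely used to model acute lung injury. The 6 IL-10 B-KO mice carried floxed IL-10 alleles (IL-10 flox/flox) together with mb1-cre, in which the Cd79a promoter drives Cre so that Il10 is deleted in the B lineage. They are called knockout below, and the 6 others, labelled IL-10 B-WT, wild type. The paper describes the latter as control mice, without stating whether they carried floxed alleles or mb1-cre. Every mouse was of C57BL/6J background and received LPS, so the comparison is between genotypes within injured lungs, and no uninjured lung was part of it. Lungs were excised after lavage. The mice were matched by age and sex according to the study's methods, and the ages and sexes themselves are not given in the sources used here. TPM values do not keep the number of reads, so the depth of each library is unknown.

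Nitric oxide made in endothelium diffuses into neighbouring smooth muscle and pericytes, where it activates soluble guanylyl cyclase, a dimer of an alpha and a beta subunit that makes cGMP. Natriuretic peptides raise cGMP through receptors that are themselves guanylyl cyclases, phosphodiesterases break it down, and cGMP-dependent protein kinase passes the signal on to relax the cell. In the lung this pathway is known for keeping pulmonary vessels dilated, and inhibitors of phosphodiesterase 5 are used against pulmonary hypertension.

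The targeted gene checked the labels only weakly. Il10 lay between 0 and 0.88 TPM in wild-type lungs and between 0 and 0.58 TPM in knockout lungs, so the groups overlapped. Whole lung also holds cells outside the B lineage, in which the gene is intact. Cd79a, whose promoter drives the Cre, was between 15.3 and 258.6 TPM in wild-type lungs and between 0 and 5.73 TPM in knockout lungs, without overlap (log2 fold change −4.16, limma adjusted p = 0.0222, and 0.0579 to 0.0635 without wild-type replicate 5 or any 1 of knockout replicates 1, 3 and 5). Without the filter on low values its limma adjusted p was 0.0999. The alveolar epithelial markers stood at a summed 13700 ± 5691 TPM in wild-type lungs and 17350 ± 3658 TPM in knockout lungs (mean ± SD, n = 6 each) with Sftpc the most abundant, so the defining genes of lung epithelium were present in every library. The lowest sum of these markers was 3981 TPM, in wild-type replicate 5, and the other wild-type lungs lay between 10380 and 19810 TPM. Of these 9 markers 6 were higher and 3 lower in knockout lungs and none was called, with log2 fold changes of 1.27 for Lamp3 (limma adjusted p = 0.353), 1.09 for Sftpa1 (limma adjusted p = 0.342), 0.74 for Sftpb (limma adjusted p = 0.378) and 0.45 for Sftpc (limma adjusted p = 0.616), and 3 reached an unadjusted p of 0.05.

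A pair of libraries stood apart from their groups. Nos2, the inducible nitric oxide synthase, was 127.9 TPM in wild-type replicate 1 and at most 5.21 TPM in the other wild-type lungs, while it was 2.95 TPM in knockout replicate 2 and at least 9.48 TPM in the other knockout lungs. The summed neutrophil markers, 2525 TPM in wild-type replicate 1 and 1114 TPM in knockout replicate 2, lay within the range of the other genotype. In Cd79a, at 15.3 and 4.35 TPM, both lungs kept to the side of their label. An exchange of labels was not tested. Results for the 10 genes are also given without these libraries, with 5 lungs per genotype. As these lungs resemble the other genotype, leaving them out favours larger differences, and a call gained in that way rests on their choice.

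Over all genes, 75 of 15148 tested were called (0.495%), at a limma adjusted p of at most 0.05 and a log2 difference of 1 or more in size, 71 of them lower in knockout lungs. An unadjusted p of 0.05 was reached by 1899 genes (12.5%), and 36.8% of all genes tested had a log2 fold change below 0. Of the 10 genes 3 were called, Pde5a, Gucy1a1 and Gucy1b1, and since the genes were chosen on this contrast nothing is read from that count. The same 3 genes had groups that did not overlap, as did 154 of the 15148 genes (1.02%). Fold changes are on the scale of log2(TPM + 1), which understates the change of genes with low values. The number called was 604 without wild-type replicate 1, where most were higher (359 higher and 245 lower), 38, 23 and 35 without wild-type replicates 4, 5 and 6, 19, 116, 33, 19 and 46 without knockout replicates 1, 2, 3, 5 and 6, and 45 with the replicate number as a block. It was 1492 without both libraries that stood apart (1066 higher and 426 lower).

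**Figure D1:**
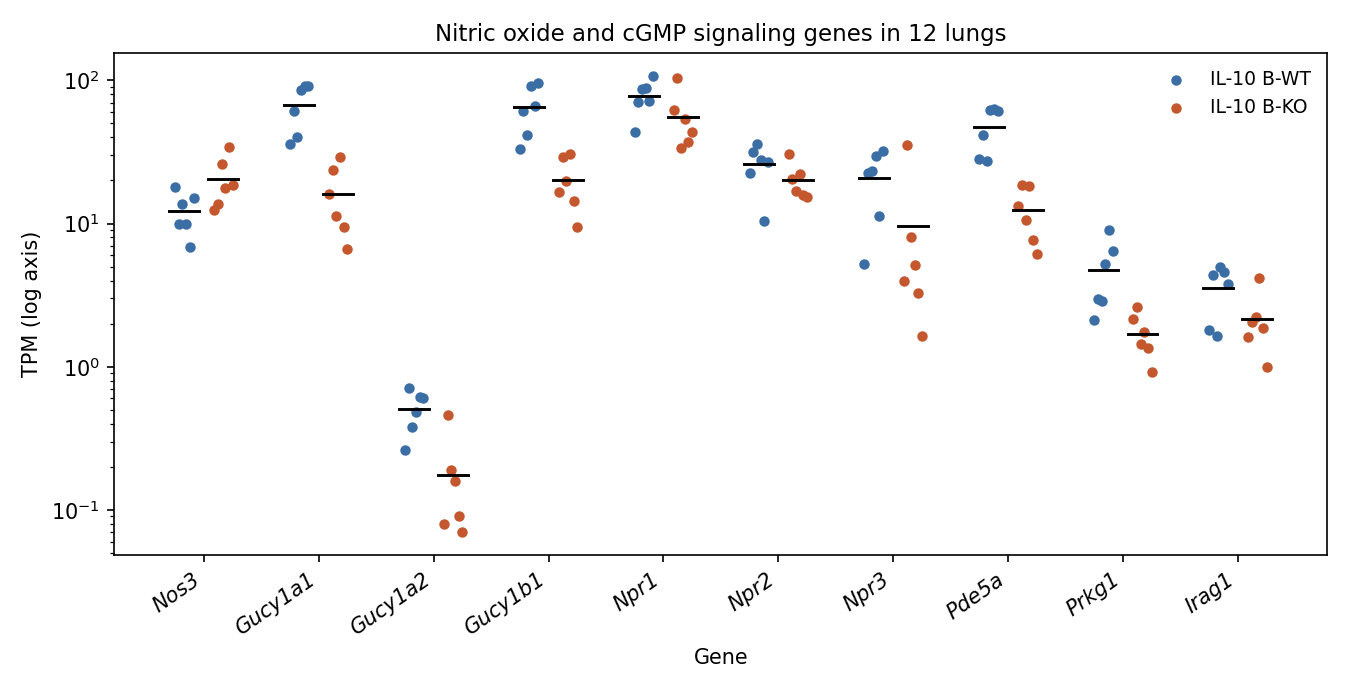
TPM (log axis) of the 10 genes in each of 6 IL-10 B-WT lungs (blue) and 6 IL-10 B-KO lungs (orange), with 1 point per lung and a black line at the group mean. Gucy1a1, Gucy1b1 and Pde5a separate the genotypes without overlap, and Npr3 in knockout lungs has 1 lung at 35.5 TPM with the others at 8.06 TPM or less.

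Nos3, the endothelial nitric oxide synthase, was the 1 gene of the set with a higher mean in knockout lungs. It ranged from 6.81 to 18.0 TPM with a median of 11.9 TPM in wild-type lungs, and from 12.5 to 34.3 TPM with a median of 18.3 TPM in knockout lungs. The groups overlapped, with 3 of 6 knockout lungs above every wild-type lung. Means were 12.3 ± 4.11 and 20.6 ± 8.28 TPM (SD, n = 6 each), which gave a log2 fold change of 0.68 ± 0.27 (SE), and 0.89 ± 0.28 without the libraries that stood apart.

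Nos3 differed in direction from most markers of the endothelium that it is named for. Of 14 endothelial markers tested 12 were lower and 2 higher in knockout lungs, none was called, 2 reached an unadjusted p of 0.05, and their median log2 fold change was −0.17 beside 0.10 for all genes tested. Their summed level was 4487 ± 1133 TPM in wild-type lungs and 3781 ± 765 TPM in knockout lungs (SD, n = 6 each), with Egfl7 the most abundant. Relative to the mean of these markers within a lung, Nos3 was 0.89 higher in knockout lungs on the log2 scale. Nos3 followed the neutrophil markers instead across lungs (r = 0.87, rho = 0.92, 12 lungs with the genotype mean subtracted, and r = 0.82 without the 2 lungs farthest from the median). The part of neutrophil content in the level of Nos3 was not tested.

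The other genes of nitric oxide synthesis were spread in both directions. Of 20 listed genes 19 were tested, 11 were higher and 8 lower in knockout lungs, none was called and 3 reached an unadjusted p of 0.05. The log2 fold change of Nos2, 1.32, did not pass (limma adjusted p = 0.525, and 0.0478 without wild-type replicate 1). Cav1, the caveolar protein that binds the endothelial synthase, was the most abundant of the list at 797.9 TPM in wild-type lungs and 653 TPM in knockout lungs (limma adjusted p = 0.503).

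The ratio of Nos2 to Nos3 within a lung was 7.10 in wild-type replicate 1 and between 0.203 and 0.378 in the other wild-type lungs. In knockout lungs it ran from 0.214 in replicate 2 to 2.05 in replicate 5. The inducible transcript thus outnumbered the endothelial one in wild-type replicate 1 and in knockout replicates 4, 5 and 6.

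Gucy1a1 encodes the main alpha subunit of soluble guanylyl cyclase. Its level ran from 35.7 to 91.2 TPM with a median of 73.1 TPM in wild-type lungs, and from 6.61 to 29.2 TPM with a median of 13.6 TPM in knockout lungs. Every knockout lung lay below every wild-type lung. Means were 67.4 ± 25.4 and 16.04 ± 8.80 TPM (SD, n = 6 each), which gave a log2 fold change of −2.07 ± 0.36 (SE), the most negative of the 9 genes tested, and −2.37 ± 0.35 without the libraries that stood apart. With array quality weights Gucy1a1 had −1.97, and Npr3 was the more negative at −2.10. In a whole lung, fewer cells that express a gene and less RNA of it per cell cannot be told apart.

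Gucy1b1 encodes the beta subunit that pairs with either alpha subunit. It ranged from 33.0 to 96.5 TPM with a median of 64.1 TPM in wild-type lungs, and from 9.49 to 30.8 TPM with a median of 18.3 TPM in knockout lungs. The groups again did not overlap, although the closest lungs, wild-type replicate 1 at 33.0 TPM and knockout replicate 4 at 30.8 TPM, were near each other. Means were 65.1 ± 25.6 and 20.1 ± 8.42 TPM (SD, n = 6 each), which gave a log2 fold change of −1.65 ± 0.32 (SE), and −1.95 ± 0.30 without the libraries that stood apart.

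Gucy1a2, the alternative alpha subunit, was scarce in these lungs and was not tested. It lay between 0.26 and 0.71 TPM in wild-type lungs and between 0.07 and 0.46 TPM in knockout lungs, and 5 of 6 knockout lungs were below every wild-type lung. The exception was knockout replicate 2, and without the libraries that stood apart the means were 0.556 ± 0.128 and 0.118 ± 0.0536 TPM (SD, n = 5 each). Gucy1a2 made up 0.781 ± 0.221% of the alpha subunit TPM in wild-type lungs and 1.10 ± 0.576% in knockout lungs (SD, n = 6 each), so nearly all alpha subunit RNA was Gucy1a1 in both genotypes.

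Alpha and beta subunit RNA were close to equal in wild-type lungs. The ratio of Gucy1a1 to Gucy1b1 TPM was 1.05 ± 0.164 in wild-type lungs and 0.774 ± 0.162 in knockout lungs (SD, n = 6 each), and 4 of 6 knockout lungs were below every wild-type lung. The lowest ratio was 0.565, in knockout replicate 3.

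The subunit genes are neighbours. Gucy1a1 lies at chr3:82092427-82145789 and Gucy1b1 at chr3:82032006-82074689, both on the minus strand (GRCm38, GENCODE M21), with 17737 bases and no annotated gene between them. Pde5a is on the same chromosome at chr3:122728947-122859374 on the plus strand. None of the 6 other guanylyl cyclase genes listed passed the filter, and Gucy1b2, Gucy2d and Gucy2f were listed at 0 in all 12 lungs.

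Npr1, the receptor for atrial and B-type natriuretic peptides, was the most abundant of the 10 genes in both genotypes. It ran from 43.6 to 107.6 TPM with a median of 79.8 TPM in wild-type lungs, and from 33.5 to 103.7 TPM with a median of 48.5 TPM in knockout lungs. The groups overlapped, and the highest knockout value was that of replicate 2. The log2 fold change was −0.54 ± 0.28 (SE) in 12 lungs and −0.90 ± 0.20 without the libraries that stood apart.

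Npr2, the receptor for C-type natriuretic peptide, differed least of the tested genes of the set when all lungs were kept and none was weighted. It ranged from 10.5 to 36.1 TPM in wild-type lungs and from 15.4 to 30.6 TPM in knockout lungs, with all knockout lungs inside the wild-type range. Its log2 fold change was −0.29 ± 0.27 (SE), about the size of its error, and −0.33 ± 0.31 without the libraries that stood apart. Without wild-type replicate 5 it was −0.52 ± 0.19, and with array quality weights −0.55 ± 0.19, beyond its error in both. Irag1 was smaller in size there, at −0.44 and −0.35, as was Nos3 at 0.51 with the weights.

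Npr3, which lacks a cyclase domain and clears natriuretic peptides, had 1 knockout lung far above the others. It ranged from 5.25 to 32.3 TPM with a median of 22.8 TPM in wild-type lungs, and from 1.65 to 35.5 TPM with a median of 4.58 TPM in knockout lungs. The highest of all 12 lungs was knockout replicate 2, and 4 of 6 knockout lungs were below every wild-type lung. The log2 fold change was −1.43 ± 0.58 (SE) in 12 lungs, −1.91 without knockout replicate 2, −1.75 without wild-type replicate 1 and −2.23 ± 0.34 without both. With both left out its mean was 23.8 ± 8.17 TPM in wild-type lungs and 4.43 ± 2.40 TPM in knockout lungs (SD, n = 5 each).

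The clearance receptor took 15.5 ± 4.98% of the TPM of the natriuretic peptide receptors in wild-type lungs and 9.19 ± 7.43% in knockout lungs (SD, n = 6 each). In knockout replicate 2 the share was 22.2%, and in replicate 6 it was 2.71%. Of the ligands and processing genes, 3 of 7 were tested, 2 were higher and 1 lower, and none was called or reached an unadjusted p of 0.05. Nppa, the atrial peptide gene, was 51.4 ± 72.6 TPM in wild-type lungs and 6.92 ± 5.41 TPM in knockout lungs (SD, n = 6 each, limma adjusted p = 0.503), with 190.9 TPM in wild-type replicate 4. Furin, a protease that cleaves peptide precursors, had a log2 fold change of 0.80 (limma adjusted p = 0.441), and Mme, the endopeptidase that degrades natriuretic peptides, 0.16 (limma adjusted p = 0.828).

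Nppa is also a gene of the cardiac muscle that sheathes pulmonary veins in mice. All 8 cardiomyocyte markers, Nppa among them, were lower in knockout lungs, none was called and 2 reached an unadjusted p of 0.05. Their summed level ran from 78.8 to 1836 TPM in wild-type lungs and from 31.8 to 494.2 TPM in knockout lungs, with Myh6 the most abundant. Myl7 had a log2 fold change of −1.55 (limma adjusted p = 0.532), Actc1 −1.54 (limma adjusted p = 0.375) and Myh6 −1.19 (limma adjusted p = 0.606). The part of this muscle in the level of Nppa was not tested.

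Pde5a, the phosphodiesterase that hydrolyses cGMP in smooth muscle, separated the genotypes. It ran from 27.2 to 63.2 TPM with a median of 51.5 TPM in wild-type lungs, and from 6.08 to 18.7 TPM with a median of 12.0 TPM in knockout lungs. Every knockout lung was below every wild-type lung. Means were 47.3 ± 17.2 and 12.5 ± 5.31 TPM (SD, n = 6 each), which gave a log2 fold change of −1.86 ± 0.31 (SE), and −2.12 ± 0.31 without the libraries that stood apart.

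Pde5a was set against both subunits of the cyclase that makes its substrate. The ratio of Pde5a to Gucy1a1 TPM was 0.707 ± 0.0455 in wild-type lungs and 0.821 ± 0.112 in knockout lungs (SD, n = 6 each), and that of Pde5a to Gucy1b1 was 0.742 ± 0.127 and 0.624 ± 0.0993. RNA of the soluble cyclase and RNA of this phosphodiesterase were thus low in the same lungs.

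Since the genes were chosen on this contrast, the calls of Pde5a, Gucy1a1 and Gucy1b1 and their loss under other settings are given as descriptions. All 3 were lost with quantile normalization, with median centring, with the replicate number as a block and without the filter on low values, and also when any 1 of wild-type replicates 4, 5 and 6 or knockout replicates 1, 3 and 5 was left out. Gucy1b1 also lost its call without wild-type replicate 2 or knockout replicate 6. Their log2 fold changes stayed negative throughout, between −2.27 and −1.87 for Gucy1a1, between −1.82 and −1.47 for Gucy1b1 and between −2.0 and −1.69 for Pde5a with 1 lung left out.

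The other phosphodiesterases and exporters of cGMP were spread in both directions. Of 17 listed genes 9 were tested, 6 were higher and 3 lower, none was called and 1 reached an unadjusted p of 0.05. Pde3a was 7.37 ± 1.57 TPM in wild-type lungs and 4.47 ± 2.12 TPM in knockout lungs (SD, n = 6 each, limma adjusted p = 0.298), with 5 of 6 knockout lungs below every wild-type lung. Pde1b had a log2 fold change of 0.72 (limma adjusted p = 0.484), and Abcc5, a transporter that exports cGMP and the most abundant of the list, 0.43 (limma adjusted p = 0.462). Without wild-type replicate 5 Pde1b had 0.43 and Abcc5 0.23.

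Prkg1, the cGMP-dependent protein kinase of smooth muscle, had a mean of 4.77 ± 2.65 TPM in wild-type lungs and 1.70 ± 0.602 TPM in knockout lungs (SD, n = 6 each). The ranges, 2.13 to 9.05 TPM and 0.92 to 2.60 TPM, overlapped through the highest knockout lungs, and 4 of 6 knockout lungs were below every wild-type lung. The log2 fold change was −1.0 ± 0.28 (SE), and −1.24 ± 0.27 without the libraries that stood apart.

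Irag1, a kinase substrate that restrains calcium release from the endoplasmic reticulum, was 3.52 ± 1.45 TPM in wild-type lungs and 2.15 ± 1.08 TPM in knockout lungs (SD, n = 6 each). Its ranges of 1.64 to 4.95 TPM and 0.99 to 4.18 TPM overlapped widely. The log2 fold change was −0.51 ± 0.27 (SE), and −0.64 ± 0.29 without the libraries that stood apart.

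Among 27 other effectors and kinase substrates 22 were tested, 7 were higher and 15 lower, 1 was called and 4 reached an unadjusted p of 0.05. The gene called was Trpc6, a cation channel that the kinase inhibits, at 8.96 ± 2.53 TPM in wild-type lungs and 3.05 ± 0.929 TPM in knockout lungs (SD, n = 6 each), which gave a log2 fold change of −1.29 ± 0.21 (SE, limma adjusted p = 0.0195, and 0.0748 with the replicate number as a block, 0.0574 without knockout replicate 1 and 0.058 without knockout replicate 5). All 6 knockout lungs were below every wild-type lung. Mylk, the myosin light chain kinase, was not called, with a log2 fold change of −0.91 (limma adjusted p = 0.0438), and its groups did not overlap. That adjusted p was above 0.05 with the block, without the filter, with quantile normalization, with median centring, with TPM rescaled without immunoglobulin genes and without any 1 lung other than wild-type replicate 1 or knockout replicate 2. Ppp1r14a, an inhibitor of myosin phosphatase, had a log2 fold change of −0.89 (limma adjusted p = 0.321, and 0.0462 without wild-type replicate 1), and Crip2, the most abundant of the list, −0.42 (limma adjusted p = 0.51).

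Over all 77 listed pathway genes 53 were tested, 26 were higher and 27 lower, and 1 was called. The median log2 fold change was 0.00 beside 0.10 for all genes tested. Besides the 10 genes, the deposited table annotates 163 genes to the KEGG cGMP-PKG pathway, 25 of which are also among the 77. Of the 163 genes 126 were tested, 64 were higher and 62 lower, 2 were called (beside 0.495% of all genes), and 26 reached 0.05 before adjustment (beside 12.5% of all genes). Those called were Trpc6, which is in both lists, and Kng2, a kininogen gene, which was 0.223 ± 0.170 TPM in wild-type lungs and 2.53 ± 0.954 TPM in knockout lungs (SD, n = 6 each, limma adjusted p = 0.0097), higher in 6 of 6 lungs. Kng2 passed the filter through the knockout lungs alone, and was called without the filter too. Adcy8, an adenylyl cyclase, had a log2 fold change of −1.92 (limma adjusted p = 0.051) and Agtr1a, the angiotensin receptor, −1.77 (limma adjusted p = 0.081), and both were called without wild-type replicate 1 or without knockout replicate 2. In the other direction Pik3r5, a kinase subunit of leukocytes, had 1.28 (limma adjusted p = 0.382). Without wild-type replicate 1 the listed genes called were 6 and the KEGG genes 9, without knockout replicate 2 the KEGG genes were 4, and without knockout replicate 1 or 5 the counts were 0 and 1, as they were with the block.

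The order of levels within a genotype was compared between neighbours on the TPM scale, which is per transcript length. In wild-type lungs the order of means was Npr1, Gucy1a1, Gucy1b1, Pde5a, Npr2, Npr3, Nos3, Prkg1, Irag1 and Gucy1a2. In knockout lungs it was Npr1, Nos3, Npr2, Gucy1b1, Gucy1a1, Pde5a, Npr3, Irag1, Prkg1 and Gucy1a2. Nos3 stood below Npr3 in wild-type lungs and second to Npr1 in knockout lungs, where its mean of 20.55 TPM was close to those of Npr2 (20.21 TPM) and Gucy1b1 (20.07 TPM) and it was above Npr2 in 3 of 6 lungs.

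None of the 18 neighbour pairs passed an adjusted p of 0.05 in the exact two-sided sign-flip permutation test, and 7 reached an unadjusted p of 0.05, each at 0.03125, the smallest that 6 lungs can give (adjusted p = 0.0804). After adjustment a pair at this smallest p could pass only if most of the 18 pairs reached it too. The lack of passing pairs therefore leaves the order of single pairs undecided. In wild-type lungs these were Gucy1b1 above Pde5a and Irag1 above Gucy1a2. In knockout lungs they were Npr1 above Nos3, Gucy1b1 above Gucy1a1, Gucy1a1 above Pde5a, Npr3 above Irag1 and Prkg1 above Gucy1a2, each in 6 of 6 lungs. Gucy1a1 and Gucy1b1 were closest in wild-type lungs, with a mean log2 difference of 0.05 ± 0.20 (SD, n = 6).

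Correlations across lungs are given as descriptions, on log2(TPM + 1), for 45 pairs of genes. Pde5a and Gucy1a1 had r = 0.99 (rho = 0.77) in 6 wild-type lungs and r = 0.98 (rho = 0.94) in 6 knockout lungs. With the genotype mean subtracted the 12 lungs gave r = 0.98 (rho = 0.97), and 0.99 without the 2 lungs farthest from the median. The pair was thus high and low in the same lungs of each genotype. Gucy1a1 and Gucy1b1 had r = 0.93 (rho = 0.96) over the 12 lungs, and Gucy1b1 and Irag1 had r = 0.85 (rho = 0.82).

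Npr2 and Nos3 stood outside this group. The r of Npr2 with Pde5a was −0.01 (rho = 0.10) over the 12 lungs, but −0.45 in wild-type lungs and 0.66 in knockout lungs. Nos3 had r = −0.59 (rho = −0.60) with Pde5a, which fell to −0.41 without the 2 lungs farthest from the median. Npr1 and Npr3 had r = 0.78 (rho = 0.69), and 0.42 without those lungs, with r = 0.93 (rho = 0.94) in wild-type lungs and 0.70 (rho = 0.31) in knockout lungs.

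**Figure D2:**
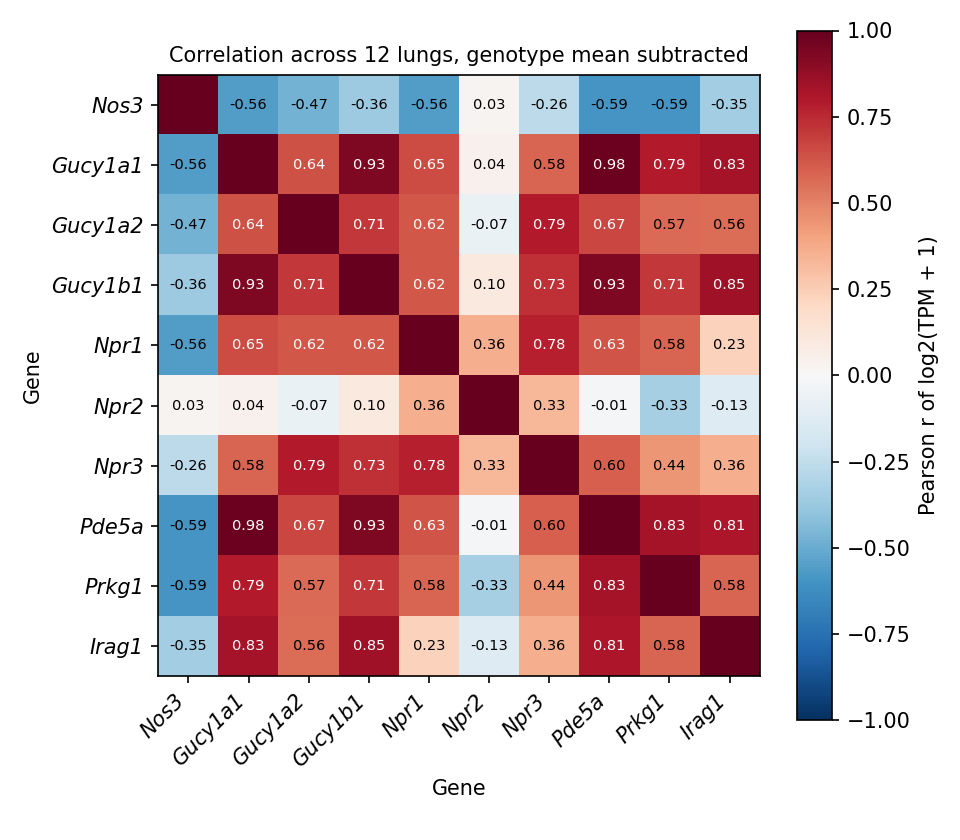
Pearson r of log2(TPM + 1) for each pair of the 10 genes across 12 lungs after the mean of each genotype was subtracted, with red for positive and blue for negative r. Gucy1a1, Gucy1b1 and Pde5a share r of 0.93 to 0.98, while Npr2 is near 0 with them and Nos3 is negative.

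The genes most like 4 of the members over the 12 lungs, by Pearson r with the genotype mean subtracted, were as follows. Pde5a was most like Gucy1a1 (r = 0.982), Gap43 (0.971), Rerg (0.967), Cox4i2 (0.958) and Emid1 (0.948). Gucy1b1 was most like Ccn3 (r = 0.969), Rerg (0.966), Clstn2 (0.958), Gap43 (0.954) and Notch3 (0.949). Cox4i2 and Notch3 are on the list of pericyte markers. Nos3 was most like Sema7a (r = 0.968), Rap1b (0.954), Plaur (0.952), Mir221 (0.951) and Ms4a8a (0.95). Npr3 was most like Ncald (r = 0.965), Frmpd2 (0.956), Aldh2 (0.954), Thsd4 (0.953) and Cdc42bpa (0.952).

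Markers of mural cells (pericytes and smooth muscle, which wrap vessels) moved with the cyclase and Pde5a. All 14 pericyte markers were lower in knockout lungs, 2 were called and 10 reached an unadjusted p of 0.05, with a median log2 fold change of −1.22. Of all genes tested 36.8% were lower, 0.495% were called and 12.5% reached that p. Their summed level ran from 579.5 to 1246 TPM in wild-type lungs and from 251.2 to 654.4 TPM in knockout lungs, with Mcam the most abundant, and no marker was at 0 in any lung. Those called were Pdgfrb (log2 fold change −1.44, limma adjusted p = 0.0456) and Notch3 (−1.78, limma adjusted p = 0.0236). Vtn had −2.0 (limma adjusted p = 0.0796) and Ndufa4l2 −1.67 (limma adjusted p = 0.0719), whereas Mcam had −0.07 (limma adjusted p = 0.896). The adjusted p of Pdgfrb rose above 0.05 on leaving out any lung but wild-type replicates 1 and 3, at most to 0.12, and that of Notch3 without any 1 of wild-type replicates 2, 4, 5 and 6 or knockout replicates 1, 3 and 5, at most to 0.0694. With the block these adjusted p were 0.184 and 0.0679, and without the filter on low values 0.129 and 0.0999. They were 0.0683 and 0.0658 with quantile normalization and 0.0842 and 0.0734 with median centring. With TPM rescaled without immunoglobulin genes that of Pdgfrb was 0.0624. Vtn was called without wild-type replicate 1 (limma adjusted p = 0.00717), and Ndufa4l2 without that lung (0.0251) or knockout replicate 4 (0.0472).

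Smooth muscle markers were lower in 10 of 10 tested, none was called and 7 reached an unadjusted p of 0.05, with a median log2 fold change of −0.90. Their sum was 683.5 ± 309.9 TPM in wild-type lungs and 380.2 ± 172 TPM in knockout lungs (SD, n = 6 each), with Acta2 the most abundant (log2 fold change −0.91, limma adjusted p = 0.389). Itga8 (−1.21, limma adjusted p = 0.111, and 0.0256 without wild-type replicate 1), Cnn1 (−1.04, limma adjusted p = 0.474) and Myh11 (−1.03, limma adjusted p = 0.357) differed most.

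Across the 12 lungs with the genotype mean subtracted, the mean of the pericyte markers had r = 0.89 (rho = 0.92) with Gucy1b1, 0.83 (rho = 0.80) with Gucy1a1, 0.81 (rho = 0.72) with Pde5a and 0.96 (rho = 0.90) with Irag1. Without the 2 lungs farthest from the median these r were 0.84, 0.69, 0.71 and 0.94. The mean of the smooth muscle markers had similar r with these genes, in the same order 0.90, 0.80, 0.80 and 0.94. Without the 2 farthest lungs those were 0.79, 0.61, 0.64 and 0.93. Relative to the pericyte mean within a lung, the knockout lungs differed by −1.03 for Gucy1a1, −0.82 for Pde5a and −0.61 for Gucy1b1 on the log2 scale. On the same measure Prkg1 differed by 0.04 and Irag1 by 0.53, but both had low values, whose change log2(TPM + 1) understates. The log2 fold change of Prkg1 was −1.0, and −1.33 with a pseudocount of 0.1. In mean TPM, Prkg1 was 2.8-fold, Irag1 1.64-fold and Gucy1b1 3.24-fold lower in knockout lungs. The pericyte mean itself differed by −1.04. The part of mural cell content in the lower levels of these genes was not tested.

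Npr1 followed the endothelial markers (r = 0.80, rho = 0.70, and r = 0.61 without the 2 lungs farthest from the median), and relative to their mean it differed by −0.33 between genotypes on the log2 scale. Its r was of similar size with the neutrophil markers (−0.76, rho = −0.71) and the platelet markers (0.72, rho = 0.59). Kdr, Eng, Robo4 and Egfl7, named next, are endothelial markers. Among the endothelial markers Kdr (−0.71, limma adjusted p = 0.35), Eng (−0.57, limma adjusted p = 0.378) and Robo4 (−0.42, limma adjusted p = 0.4) had the largest log2 fold changes, and Egfl7 had −0.20 (limma adjusted p = 0.749).

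Neutrophil markers went the other way. All 9 were higher in knockout lungs, none was called and 7 reached an unadjusted p of 0.05, with a median log2 fold change of 1.57. Their sum ran from 331.7 to 2525 TPM in wild-type lungs, where replicate 1 was the highest, and from 1114 TPM in replicate 2 to 7651 TPM in replicate 5 of the knockout, with S100a9 the most abundant. Retnlg (2.09, limma adjusted p = 0.187), Mmp8 (2.04, limma adjusted p = 0.235), S100a8 (1.94, limma adjusted p = 0.266) and S100a9 (1.87, limma adjusted p = 0.214) had the largest log2 fold changes, and all 4 were called without wild-type replicate 1, at an adjusted p of 0.0391 to 0.0442. Over 12 lungs with the genotype mean subtracted their mean had r = −0.78 with Gucy1a1 (rho = −0.73) and with Pde5a (rho = −0.76). The part of neutrophil content in the levels of these genes was not tested.

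B cell markers were lower in 8 of 8, and 1 was called, Cd79a. Their sum was between 72.9 and 911.8 TPM in wild-type lungs and between 13.1 and 91.5 TPM in knockout lungs, with Cd79b the most abundant. Pax5 (−2.87, limma adjusted p = 0.0731) and Cd79b (−1.90, limma adjusted p = 0.304) were not called, while Pax5 was without knockout replicate 2 (0.0215), without wild-type replicate 1 (0.0292) and with the block (0.0366). Knockout replicates 1, 3, 4 and 5 each had 2 of these markers at 0, and replicates 2 and 6 had none at 0. The r of the B cell mean with Pde5a was −0.17 (rho = −0.31) with the genotype mean subtracted, and −0.65 without the 2 lungs farthest from the median.

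Fibroblast markers were mixed, with 5 higher and 7 lower of 12 and none called, 3 at an unadjusted p of 0.05 or less. Inmt, the most abundant, had −1.78 (limma adjusted p = 0.325, and 0.0187 without wild-type replicate 1), Col3a1 1.01 (limma adjusted p = 0.534) and Tcf21 −0.92 (limma adjusted p = 0.177) on the log2 scale. Of 8 platelet markers tested 5 were higher and 3 lower and none was called or reached an unadjusted p of 0.05, with Gp1bb at 0.71 (limma adjusted p = 0.441), Pf4, the most abundant, at 0.37 (limma adjusted p = 0.658) and Clec1b at −0.28 (limma adjusted p = 0.777).

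The 250 bases before the RefSeq start (GRCm38.p6) are shown for Gucy1b1 and Irag1, members that moved together across lungs and whose windows hold no annotated exon. RefSeq promoters matched 9 of the 10 genes. Capitals mark a GC box (GGGCGG) or an RBPJ site (TGGGAA) on either strand. The Gucy1b1 window is chr3:82074712-82074961 and the Irag1 window, the first of 2 listed under its older symbol Mrvi1, chr7:110982462-110982711, both on the minus strand.
Gucy1b1: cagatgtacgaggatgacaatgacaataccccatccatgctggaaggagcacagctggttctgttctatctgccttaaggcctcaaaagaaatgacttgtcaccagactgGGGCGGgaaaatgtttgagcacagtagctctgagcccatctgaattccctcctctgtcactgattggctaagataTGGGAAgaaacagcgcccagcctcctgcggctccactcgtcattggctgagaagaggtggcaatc
Irag1: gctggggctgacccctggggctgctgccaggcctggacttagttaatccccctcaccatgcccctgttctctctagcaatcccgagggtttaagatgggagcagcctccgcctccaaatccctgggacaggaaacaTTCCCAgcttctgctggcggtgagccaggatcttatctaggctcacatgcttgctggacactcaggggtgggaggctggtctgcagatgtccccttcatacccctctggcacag
The Gucy1b1 window holds 1 GC box and 1 RBPJ site, and the Irag1 window 1 RBPJ site and, overlapping it, 1 TEAD site (GGAATG), while the other Irag1 window (chr7:110946188-110946437) holds no match to these motifs. Of all 32851 windows of this length 32.7% hold a GC box, 21.6% an RBPJ site and 12.6% a TEAD site. No match to a cAMP response element (TGACGTCA, 1.55% of windows), a STAT site (TTCNNNGAA, 7.02%) or a CArG box (1.47%) was in any of these windows. Such matches describe the letters of the window alone.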

How the data were processed

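RNA of 6 wild-type (IL-10 B-WT) and 6 knockout (IL-10 B-KO) lungs was measured by RNA-seq. The deposited values are TPM per gene, which the authors made with RSEM. The submitters' processing notes also name fastp, HISAT and the genome build GRCm38.p5. The annotation of KEGG pathways was taken from the same table. The 10 genes and all gene lists were chosen with earlier results of these data known. Genes with at least 1 TPM in at least 6 libraries were tested on log2(TPM + 1) with limma 3.58.1 (lmFit, eBayes with trend) in R 4.3.3, which was tested on simulated data. Genes were called at a Benjamini-Hochberg adjusted p of at most 0.05 over all genes tested, where the log2 difference was 1 or more in size. Levels of neighbouring genes were compared with an exact two-sided sign-flip permutation test. Named were the 10 genes, in each list the genes called, the 3 with the largest absolute log2 fold change and the most abundant, in the KEGG list those called and the 3 most extreme each way, and the 5 genes most correlated with 4 members, and 4 genes that this rule chose are not reported here. Alternatives were another pseudocount, filter, scaling, weights or block, and libraries left out. Gene positions were matched by identifier to GENCODE M21 and promoters by symbol to RefSeq. Tables were made in Python 3.11.15 with pandas 2.3.3 and NumPy 2.4.6. Nothing in the sources used here gives the reads per library, so the precision that depth allows is unknown.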

Additional observations from a re-analysis of the deposited data

Results flagged for a closer look

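Of 172 groups of 6 lungs examined, 22 had a lung farther from the others than Dixon's 95% critical value of 0.625 allows, where chance gives about 1 in 20 groups. That rate holds for normally distributed values, while TPM and ratios were examined here without a log transform. Every flagged value was the highest of its group, so the rate is only a rough guide. Many of these values share a lung and are not independent, and the cause was not tested.

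In knockout replicate 2 the highest of its group were Npr3 at 35.45 TPM (next 8.06), Gucy1a2 at 0.46 TPM (next 0.19), Pde3a at 8.64 TPM, Kdr at 132.3 TPM, Eng at 478.2 TPM and Clec1b at 16.17 TPM. Among knockout lungs the same one had the highest ratio of Npr1 to Npr2, 5.03, and the highest summed endothelial markers, 5235 TPM.

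In wild-type replicate 1 the highest of its group were Nos2 at 127.9 TPM (next 5.21), Furin at 130.2 TPM, Col3a1 at 460.1 TPM, Mmp8 at 22.62 TPM, S100a8 at 871.1 TPM and Pik3r5 at 53.4 TPM. Its ratio of Nos2 to Nos3 was 7.1.

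The lung of wild-type replicate 2 stood far above its group in Cd79a at 258.6 TPM, Cd79b at 214.5 TPM and the summed B cell markers at 911.8 TPM. Nppa was 190.9 TPM in wild-type replicate 4, and Pf4 was 205.7 TPM in knockout replicate 3. The ratio of Gucy1a1 to Gucy1b1 was 1.37 in wild-type replicate 5, and the share of Npr1 in the summed TPM of the 10 genes was 31.9% in wild-type replicate 3.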

How the results depend on the processing

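The 9 genes of the set that were tested kept the sign of their log2 fold change in all 187 alternatives, while 33 ended a call and 4 made one, which is a description, as these genes were chosen on this contrast. Genes called, 75 in the report, numbered 6 without the filter on low values, 27 with TPM rescaled without immunoglobulin genes, 39 with quantile normalization, 36 with median centring and 318 with array quality weights. Of the 10 genes 3 were called, and 0 without the filter, with quantile normalization or with median centring. Of the listed pathway genes 1 was called, 0 under those same settings and 3 with array quality weights. Of the KEGG genes 2 were called, 1 under those settings and with a mean TPM of at least 5, and 6 with array quality weights. More genes tested adds to the adjustment without the filter, and the cause was not tested for the others.

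Leaving out 1 library gave 19 to 604 genes called, 604 without wild-type replicate 1 (359 higher and 245 lower) and 116 without knockout replicate 2. It gave 0 to 4 of the 10 genes, 0 to 6 listed genes and 1 to 9 KEGG genes. Gucy1b1 alone lost its call without wild-type replicate 2, without knockout replicate 6 and with TPM rescaled without immunoglobulin genes. Without both wild-type replicate 1 and knockout replicate 2 the counts were 1492 genes (1066 higher and 426 lower), 5 of the 10 genes, 10 listed genes and 17 KEGG genes.

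With the replicate block 45 genes, 0 of the 10 genes, 0 listed genes and 1 KEGG gene were called. The numbers do not pair the lungs, since same-numbered lungs had correlations of their deviations from −0.292 to 0.046. Mme changed sign at −0.15 with array quality weights and ranged from −0.04 (without wild-type replicate 5) to 0.31 with 1 library left out, and Mcam from −0.19 to 0.06, with 0.01 without wild-type replicate 6. Median centring moved the median of all genes by −0.11, and differences relative to that median (−2.17 for Gucy1a1, −1.75 for Gucy1b1 and −1.96 for Pde5a) are the same with and without it by construction. The order of levels gave 0 pairs past the threshold with a pseudocount of 0.1 and with each library left out, where the exact permutation test over 5 lungs cannot go below p = 0.0625, so this says nothing about stability.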

Other observations

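The summed TPM of the 10 genes was 326 ± 90.9 in wild-type lungs and 159 ± 52.8 in knockout lungs (SD, n = 6 each). Npr1 made up 24.2 ± 3.88% of that sum in wild-type lungs and 34.5 ± 7.20% in knockout lungs. The ratio of Npr1 to Npr3 ran from 2.99 to 8.31 in wild-type lungs and from 2.93 in replicate 2 to 26.5 in replicate 6 of the knockout. Irag1 exceeded Prkg1 in 1 of 6 wild-type lungs and in 4 of 6 knockout lungs.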
